A study of Sus scrofa with 16 samples.

Results

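In preterm piglets given oral and injected antibiotics from birth, a set of innate immune transcripts was lower than in untreated piglets in both the proximal and the distal small intestine of the same animals. The samples described are the 14 arrays, of 16 in the series, that belong to 7 of 9 piglets with an array from each segment, as read from the number in the sample titles. The labels do not state in words that this number is the piglet's. For each piglet and transcript the proximal and distal log2 values were averaged into 1 piglet mean. The means of 3 treated piglets (86, 87 and 95) were then set against those of 4 untreated piglets (83, 88, 89 and 92). The question was what antibiotics changed in the small intestine regardless of segment.

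All piglets were crosses of Landrace, Large white and Duroc, delivered preterm by caesarean section at day 105 of gestation from 2 sows. After birth they had parenteral nutrition with small enteral amounts for 3 days and then formula for 2 days. Treated piglets received Ampicillin, Gentamycin and Metronidazol, both by mouth and into muscle, and the piglets titled untreated received saline. Tissue was taken on day 5. The study held 24 piglets, 11 with antibiotics and 13 controls, so the arrays cover only some of them, and how these were picked is not given in the sources used here. Which litter each piglet came from and its lesion score are also not given, so litter and treatment cannot be told apart here. RNA of tissue pieces was hybridised to an Affymetrix porcine array, on which a probe set reads 1 transcript near its 3′ end. In such bulk tissue, fewer cells of a type and less RNA per cell cannot be told apart.

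The newborn small intestine is colonised by bacteria within days of birth. Its epithelium senses microbial products through receptors such as the Toll-like receptors. It answers with secreted defence proteins, complement factors and chemokines that draw in neutrophils and monocytes. The preterm, formula-fed piglet is used as a model of necrotizing enterocolitis, an inflammatory bowel disease of preterm infants. Complement is a cascade of plasma and tissue proteins that coat microbes, attract phagocytes and form pores in membranes, and host cells carry regulators that hold it back.

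Each of the 14 arrays had 45.1% to 46.5% of its probe sets above 5 on the log2 scale, and arrays of the same segment and treatment correlated at r = 0.894 to 0.963 over the tested probe sets. Of 24123 probe sets, 11538 passed the filter (above 5 on at least 4 of the 16 arrays), and these held 4684 genes with 1 annotated gene per probe set. The enterocyte markers VIL1, FABP2, APOA4, APOB and EPCAM were present on piglet means of both groups. Their level, summed on the linear scale and given as log2, was 16.9 to 17.2 with antibiotics and 16.7 to 17.0 without. The 5′ minus 3′ difference of the control transcripts, a reading of RNA integrity, was -4.13 ± 0.88 in treated and -4.04 ± 0.63 in untreated piglets (log2, SD, n = 3 and 4, two-sided exact permutation p = 0.857, smallest possible 0.0571). FABP6, a bile acid carrier of the distal small intestine, was 2.28, 2.32 and 2.33 with antibiotics and 2.32, 7.40, 3.49 and 2.33 untreated on the proximal arrays. On the distal arrays it was 7.97, 10.27 and 10.52 with antibiotics and 11.03, 10.17, 7.32 and 6.64 untreated. Proximal tissue of untreated piglet 88 thus carried more of this distal transcript than the other proximal arrays. Untreated piglets 83 and 88 had been singled out in earlier results on other segment genes, so counts without them are given below. Throughout, values of arrays are listed in the order of piglets 86, 87 and 95, then 83, 88, 89 and 92. Treated arrays are those of piglets 86, 87 and 95 unless another piglet is named.

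On piglet means 40 of 11538 probe sets passed a Benjamini-Hochberg adjusted p of 0.05 in limma (0.347%), 26 lower with antibiotics (0.225%) and 14 higher (0.121%). An unadjusted p under 0.05 was found for 1859 (16.1%). On the deposited scale all 26 lower ones differed by at least 1 log2 unit, which is 2-fold, in each segment, and of the 14 higher ones 4 did (0.0347%). That scale reaches below the filter level of 5, and with values under 5 set to 5 a 2-fold difference in both segments was left for 23 of the 26 and for all 4. The other 10 were at least 2-fold higher in distal tissue alone, so they were called through the mean without a 2-fold difference in proximal tissue. At the level of genes, each read by its brightest probe set, 23 of 4684 were called (0.491%), 17 lower (0.363%) and 6 higher (0.128%). The 19 genes that were called and at least 2-fold in both segments are 17 lower and 2 higher (0.0427%), and they are described here. Of these, TLR2 and TLR4 were not 2-fold in both segments with values under 5 set to 5, and the other 17 were. The median difference over all tested genes was -0.02 (-0.07 in proximal and 0.02 in distal tissue).

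**Figure D1:**
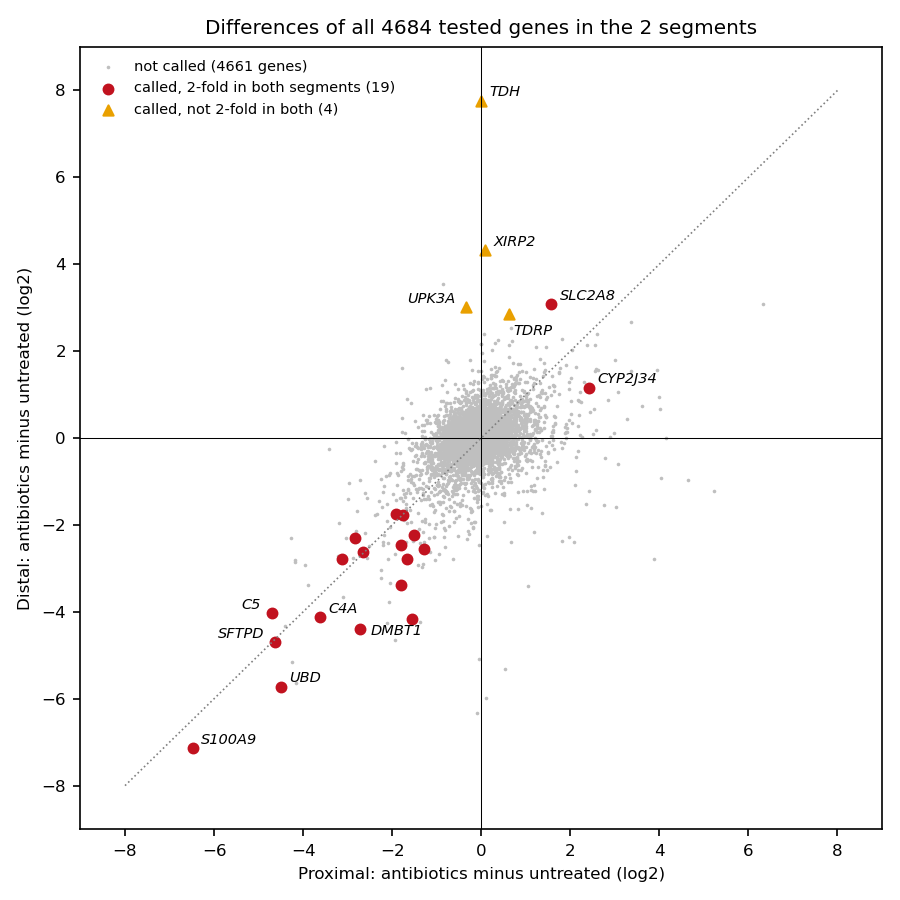
Difference between antibiotics and untreated piglets (log2) of each of the 4684 tested genes in proximal tissue (x axis) and distal tissue (y axis), 3 against 4 piglets, with equal differences on the dotted line. The 17 lower shared genes lie at the lower left with S100A9 at the far end, the 2 higher ones lie in the upper right, and TDH, XIRP2, UPK3A and TDRP lie near 0 on the proximal axis.

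The call and the 2-fold rule used these same arrays, so the values by segment describe the 19 genes and add no further support. In 18 of them the treated and untreated arrays did not overlap in either segment, LCP2 being the exception, and 16 of these were lower. Over all tested genes such a separation in both segments was seen in 2.01% for lower and 0.811% for higher values. Each of the 19 had an unadjusted p under 0.05 within proximal and within distal tissue, compared with 14.6% and 17.8% of all genes. After adjustment 16 of them passed in distal tissue on its own, where 1.64% of genes and 1.41% of probe sets did. In proximal tissue on its own 0 probe sets passed in limma, and 1382 (12%) had an unadjusted p under 0.05. Both segments came from the same piglets, so they are not separate replicates of the treatment.

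Among secreted and epithelial defence genes, S100A9 had the largest decrease of the 19. S100A9 is a subunit of calprotectin, a metal-binding protein stored in neutrophils. Its proximal values were 2.29, 2.28 and 3.12 with antibiotics and 8.06, 6.68, 10.91 and 10.51 untreated. Distal values were 2.28, 2.30 and 2.39 with antibiotics and 11.08, 6.20, 9.97 and 10.60 untreated. No array of these 3 treated piglets came near the untreated ones, and untreated piglet 88 was the lowest of its group in both segments. S100A9 changed from 9.25 ± 1.92 in the 4 untreated piglets to 2.44 ± 0.27 in the 3 treated ones, a difference of -6.81 (SE 0.90, limma adjusted p = 0.0252). Since all arrays of those 3 treated piglets lay under the filter level of 5, the decrease is given as at least 19.1-fold against that level. The untreated arrays thus carried S100A9 through the filter, and with no filter it was not called. Without untreated piglet 88 the adjusted p was 0.000224, and without any one of the other 6 piglets it was above 0.05, up to 0.141.

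DMBT1, a large secreted mucosal glycoprotein that binds bacteria, fell by 3.56 (SE 0.29, limma adjusted p = 0.00516). In proximal tissue its values were 11.97, 10.49 and 11.48 with antibiotics and 14.01, 13.64, 13.92 and 14.58 untreated. In distal tissue they were 8.76, 9.11 and 9.19 with antibiotics and 13.58, 12.50, 13.90 and 13.72 untreated. The groups stood apart by 1.67 log2 units in proximal and 3.30 in distal tissue, and the gene stayed bright in treated piglets. The decrease was -2.72 in proximal and -4.40 in distal tissue. The 95% interval of the distal minus proximal effect was -2.76 to -0.59, while its p did not pass over all probe sets (limma adjusted p = 0.315).

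SFTPD, surfactant protein D, is a collectin that binds sugars on microbes and helps phagocytes take them up. Its brighter probe set gave 3.49, 3.76 and 4.13 with antibiotics and 8.61, 8.17, 9.37 and 7.58 untreated in proximal tissue. The distal arrays gave 2.61, 6.42 and 4.88 with antibiotics and 8.77, 9.63, 9.29 and 9.63 untreated. Treated arrays spread more widely than untreated ones in distal tissue, where piglet 87 was highest, yet no treated array reached an untreated one. On piglet means SFTPD fell by 4.66 (SE 0.45, limma adjusted p = 0.00764), and the effect was nearly the same size in both segments (-4.64 and -4.69, 95% interval of their difference -1.94 to 1.83). The dimmer SFTPD probe set was also called (limma adjusted p = 0.00764), and since its treated arrays all lay under 5 the decrease there is given as at least 3.2-fold.

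TCN1, a binding protein for vitamin B12 that is also held in neutrophil granules, fell by 1.76 (SE 0.18, limma adjusted p = 0.00764), with -1.75 in proximal and -1.77 in distal tissue. MGP, matrix Gla protein, an inhibitor of tissue calcification, fell by 1.83 (SE 0.19, limma adjusted p = 0.00764), with -1.92 in proximal and -1.75 in distal tissue. The SDs of their piglet means were 0.12 to 0.19. MGP was 11.15, 11.51 and 11.45 with antibiotics and 13.40, 12.94, 13.29 and 13.54 untreated in proximal tissue. In distal tissue MGP was 12.09, 11.27 and 11.24 with antibiotics and 13.13, 13.15, 13.36 and 13.49 untreated. Over all 10 measured genes of the epithelial defence list 3 were called lower (S100A9, DMBT1 and SFTPD), compared with 0.363% of all genes. In the lower direction 7 had an unadjusted p under 0.05 (10.4% of all genes), and the median difference was -2.80. Among these 7, S100A9, DUOX2 and PIGR lay under 5 on all arrays of the 3 treated piglets and passed the filter through the untreated ones. PI3, also among the 7, had 0.10 in proximal and -5.97 in distal tissue. The count is thus not one of shared decreases alone. DUOX2, the epithelial oxidase that makes hydrogen peroxide, belongs to that list. It was at or next to the floor of the scale on all treated arrays, 2.14, 2.16 and 2.21 with antibiotics and 6.30, 2.90, 4.77 and 10.25 untreated in proximal tissue. The untreated piglets differed widely, and its difference of -3.64 (SE 1.05, limma adjusted p = 0.171) did not pass and is at least 1.73-fold against the level of 5.

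**Figure D2:**
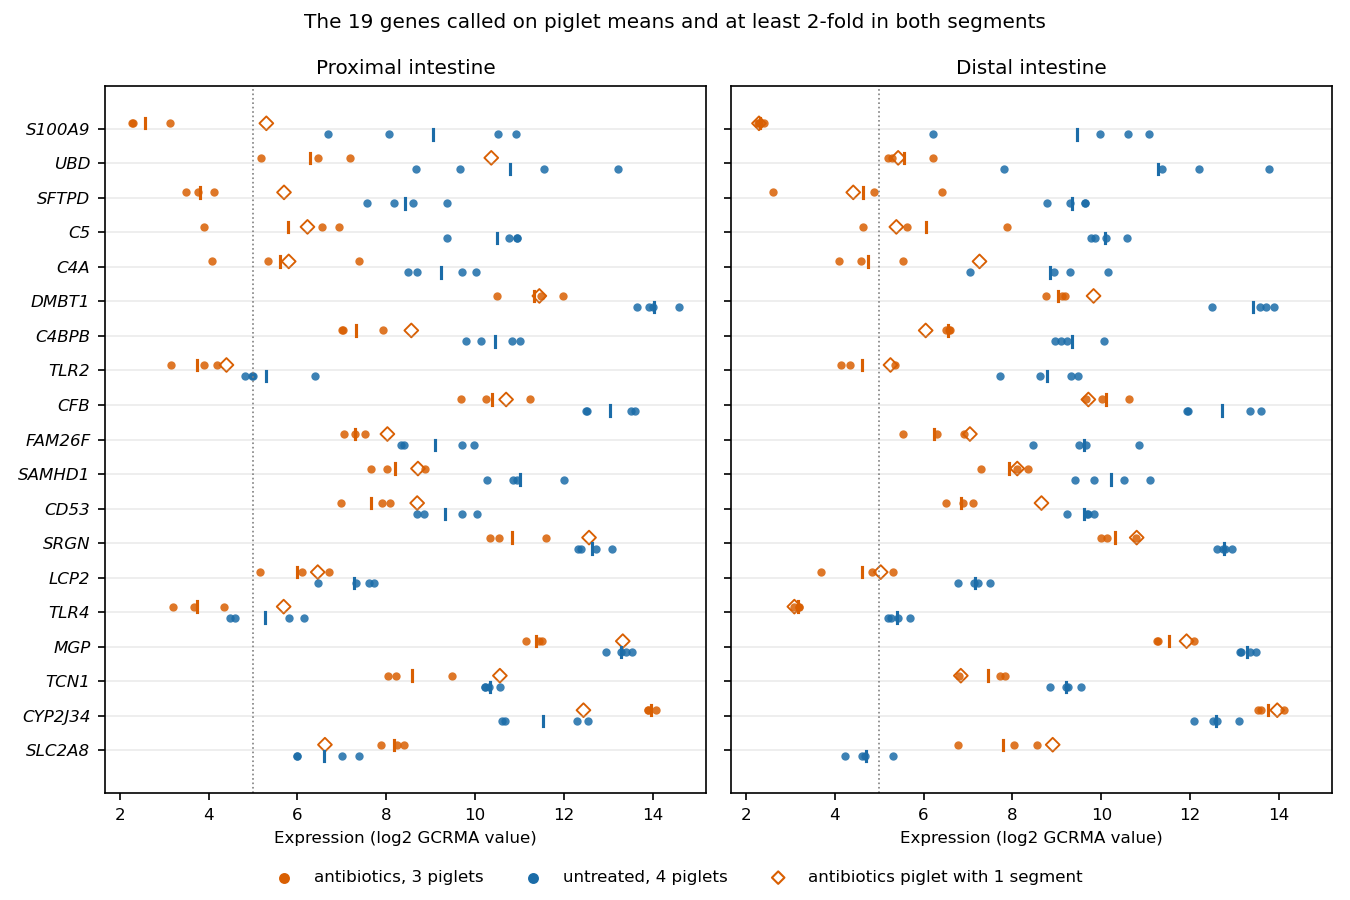
Expression (log2 GCRMA value) of the 19 genes in proximal (left) and distal (right) tissue, with 1 point per array, short vertical bars at the mean of 3 treated (orange) and 4 untreated (blue) piglets, and a dotted line at the filter level of 5. Open diamonds are the 2 treated piglets with an array from 1 segment only. The filled groups are apart in both panels for 18 genes, while the proximal diamond lies among the untreated points for 8 genes.

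Complement genes made up 4 of the 19. C5, whose cleavage gives the chemoattractant C5a and starts pore formation, fell by 4.37 (SE 0.54, limma adjusted p = 0.017). The proximal arrays read 6.93, 6.54 and 3.89 with antibiotics and 10.75, 10.94, 9.36 and 10.93 untreated. The distal arrays read 4.64, 7.87 and 5.62 with antibiotics and 10.11, 9.86, 9.77 and 10.57 untreated. Untreated values lay between 9.36 and 10.94, with proximal piglet 89 the lowest, and treated values were scattered from 3.89 to 7.87. C5 lost its call without treated piglet 86 and without untreated piglets 83 or 92 (limma adjusted p up to 0.0869).

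C4A, a component of the classical and lectin pathways, fell by 3.87 (SE 0.60, limma adjusted p = 0.0488), with -3.62 in proximal and -4.11 in distal tissue. In distal tissue its values were 5.54, 4.08 and 4.60 with antibiotics and 7.05, 8.93, 10.14 and 9.30 untreated. Untreated piglet 83 was the lowest of its group there, 1.51 log2 units above the highest treated piglet. Without piglets 87, 95, 89 or 92 its adjusted p was above 0.05, up to 0.193 in limma. CFB, the protease precursor of the alternative pathway, fell by 2.63 (SE 0.40, limma adjusted p = 0.0468), almost equally in the segments (-2.65 and -2.61). Its proximal values were 11.23, 9.67 and 10.24 with antibiotics and 12.52, 12.50, 13.51 and 13.60 untreated. Its distal values were 10.03, 10.62 and 9.65 with antibiotics and 11.93, 11.95, 13.60 and 13.35 untreated. CFB stayed highly expressed in treated piglets and the groups were apart in both segments, while the call held without piglet 88 and was lost without any of the other 6 (limma adjusted p up to 0.182). C4A and CFB lie close together in the pig genome, with 4 coding genes between them in the RefSeq annotation of assembly Sscrofa11.1.

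C4BPB, the beta chain of C4b-binding protein, which limits the classical pathway, fell by 2.95 (SE 0.28, limma adjusted p = 0.00764). It read 7.0, 7.03 and 7.92 with antibiotics and 10.12, 10.83, 9.79 and 11.02 untreated on proximal arrays. It read 6.51, 6.57 and 6.58 with antibiotics and 9.08, 8.96, 9.23 and 10.07 untreated on distal arrays. The treated group lay at least 1.87 log2 units under the untreated group in each segment, and the call held with each of the 7 piglets left out. Its neighbour CD55, a membrane regulator that dissociates the convertases, has 2 coding genes between them in the same annotation. CD55 was called at a dimmer probe set (limma adjusted p = 0.0091) and not at its brightest, where the difference was -2.48 (SE 0.40, limma adjusted p = 0.0535).

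In the complement component list 3 of 14 measured genes were called (C4A, C5 and CFB), 13 had lower means, 9 had an unadjusted p under 0.05 in the lower direction, and 5 had no overlap in both segments. Over all tested genes 0.363% were called lower, 10.4% had an unadjusted p under 0.05 in the lower direction, and 2.01% had no overlap that way in both segments. Lower means were found in 2455 of 4684 and higher means in 2229. The component list's median difference was -1.08 (-0.80 in proximal and -1.70 in distal tissue). Among its 9, C1QC had 0.12 in proximal and -2.26 in distal tissue, so not all of them were shared decreases. C8B had the 1 higher mean, at 0.74 (SE 0.29, limma adjusted p = 0.278). C3, the central component that all pathways cleave, had -1.89 (SE 0.38, limma adjusted p = 0.0835) with no overlap in either segment, and C1S, a protease of the classical pathway, had -1.62 (SE 0.36, limma adjusted p = 0.106). In the list of complement regulators and receptors 1 of 8 was called (C4BPB), all 8 had lower means, 7 had an unadjusted p under 0.05, and 5 had no overlap in both segments, with a median of -1.88. Among these, the other chain of C4b-binding protein, C4BPA, had -1.74 (SE 0.28, limma adjusted p = 0.0535) and the pore inhibitor CD59 had -1.10 (SE 0.20, limma adjusted p = 0.0682). CD46, also among the 7, had 0.15 in proximal and -1.34 in distal tissue. Summed macrophage markers, given with the leukocyte genes, were lower on the means of the same treated piglets. Their part in the complement values was not tested.

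**Figure D3:**
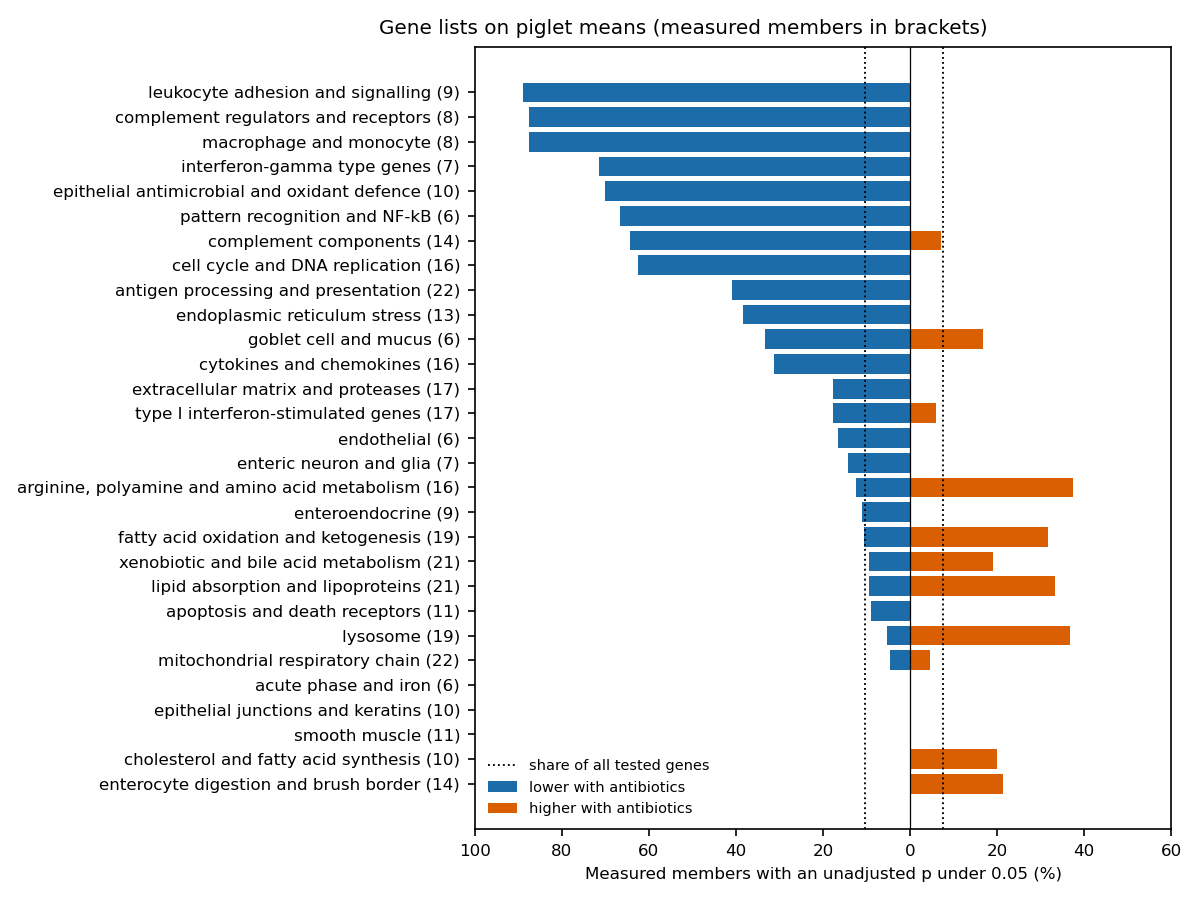
Share (%) of measured members of each gene list with at least 5 measured members that had an unadjusted p under 0.05 on piglet means, lower with antibiotics to the left in blue and higher to the right in orange, with dotted lines at 10.4% and 7.56%, the shares among all tested genes. Leukocyte adhesion, complement regulators and macrophage genes have the longest bars to the left and amino acid metabolism and lysosome genes the longest to the right.

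The receptors TLR2 and TLR4, which sense bacteria, were both among the 19. TLR2, which recognises lipoproteins of bacteria, fell by 2.86 (SE 0.39, limma adjusted p = 0.0301). In proximal tissue TLR2 was close to or under the filter level in all piglets but 92, at 3.14, 3.90 and 4.19 with antibiotics and 4.98, 4.83, 5.0 and 6.40 untreated. In distal tissue it was 4.35, 5.35 and 4.14 with antibiotics and 8.61, 7.72, 9.31 and 9.49 untreated. The distal groups were 2.37 log2 units apart and the proximal groups 0.64, and the difference was -1.56 in proximal and -4.17 in distal tissue (95% interval of the difference -3.72 to -1.51, limma adjusted p = 0.165). TLR2 kept its call with piglets 88 or 92 left out and lost it without any of the other 5 (limma adjusted p up to 0.129).

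TLR4, the receptor for lipopolysaccharide, fell by 1.88 (SE 0.28, limma adjusted p = 0.0468), which is at least 1.25-fold since all treated arrays lay under 5. Proximal TLR4 was 3.67, 3.20 and 4.34 with antibiotics and 4.60, 4.48, 5.80 and 6.15 untreated. Its distal values were 3.20, 3.20 and 3.09 with antibiotics and 5.42, 5.20, 5.70 and 5.25 untreated. The untreated arrays were themselves close to the filter level, and with values under 5 set to 5 the difference was -0.44 and not called. They carried TLR4 through the filter, and with no filter it was not called. The call held without piglet 88 and was lost without any of the other 6 piglets. Of 6 measured pattern recognition and NF-kB genes these 2 were called lower, compared with 0.363% of all genes. All 6 had lower means, compared with 2455 of 4684 over all genes, and the median was -1.50. LY96, which binds TLR4 and is needed for it to sense lipopolysaccharide, had -1.41 (SE 0.29, limma adjusted p = 0.0861). NFKBIA, an inhibitor that NF-kB itself induces, had -1.60 (SE 0.53, limma adjusted p = 0.215). C5 and TLR4 lie on the same chromosome with 9 coding genes between them in the same annotation.

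Genes of leukocytes made up the next group. CD53, a tetraspanin of white blood cells, fell by 2.22 (SE 0.23, limma adjusted p = 0.00764), with -1.66 in proximal and -2.78 in distal tissue. On proximal arrays CD53 was 7.90, 6.99 and 8.07 with antibiotics and 8.68, 10.05, 8.85 and 9.69 untreated. On distal arrays it was 7.12, 6.88 and 6.49 with antibiotics and 9.68, 9.69, 9.84 and 9.23 untreated. The groups were apart in both segments, by 0.61 log2 units in proximal and 2.11 in distal tissue. The other 2 probe sets for CD53 had lower means that did not pass, at -2.55 and -1.18 (limma adjusted p = 0.0798 and 0.137).

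LCP2, an adaptor of T cell, mast cell and platelet signalling, fell by 1.92 (SE 0.19, limma adjusted p = 0.00764). In proximal tissue the groups overlapped, at 6.10, 5.16 and 6.71 with antibiotics and 6.47, 7.73, 7.31 and 7.61 untreated. In distal tissue they did not, at 4.84, 5.32 and 3.68 with antibiotics and 7.49, 7.22, 7.14 and 6.77 untreated. SRGN, serglycin, a proteoglycan of secretory granules in blood cells, fell by 2.14 (SE 0.22, limma adjusted p = 0.00764). It was bright in all piglets and read 10.55, 10.32 and 11.59 with antibiotics and 12.32, 12.39, 13.08 and 12.71 untreated in proximal tissue. Distal SRGN read 10.78, 9.98 and 10.13 with antibiotics and 12.93, 12.60, 12.79 and 12.74 untreated. All 4 untreated piglets lay within 0.76 log2 units of each other, and every treated array lay below them.

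In the leukocyte adhesion and signalling list 2 of 9 measured genes were called lower (CD53 and LCP2), compared with 0.363% of all tested genes. All 9 had lower means, and 8 had an unadjusted p under 0.05 in that direction (10.4% of all genes). No overlap in both segments was seen for 1 of the 9 (2.01% of all genes), and the list's median was -1.38. The median was -0.90 in proximal and -1.94 in distal tissue. In the macrophage list 0 of 8 were called in limma, and all 8 had lower means. Its median was -0.85 in proximal and -1.68 in distal tissue. In the lower direction 7 had an unadjusted p under 0.05 (10.4% of all genes), and 3 had no overlap in both segments (2.01%). CD163 had -4.70 (SE 0.79, limma adjusted p = 0.0572) there, at least 14.01-fold lower against the level of 5, MRC1, the mannose receptor, had -1.60 (SE 0.29, limma adjusted p = 0.0707), and FCGR3A, an Fc receptor, had -1.76 (SE 0.33, limma adjusted p = 0.0768).

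As a check of cell types, marker levels were read on piglet means. Sums are of linear values, given as log2, so the brightest marker weighs most. Of the 4 neutrophil markers on the array only S100A9 passed the filter, and it is itself one of the 19 genes, so these markers gave no reading apart from it. S100A8 and S100A12 were at the floor of 2.14 in all treated piglets and reached 5.06 and 4.68 in untreated ones, and ELANE was at the floor in all. The 5 macrophage markers summed to 7.88 to 9.18 in treated and 10.3 to 11.3 in untreated piglets. CD14 was at or next to the floor, and CD163, MRC1, C1QA and C1QC did not pass (limma adjusted p = 0.0572, 0.0707, 0.416 and 0.309). The 6 T and NK markers summed to 5.52 to 5.96 and 6.15 to 6.66. Of these CD3E, CD3D, CD8A and CD2 did not pass the filter, and GZMH and KLRK1 did not pass the test (limma adjusted p = 0.422 and 0.181).

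OLFM4, a marker of crypt base cells and the 1 measured Paneth or crypt marker, was 11.2 to 13.6 in treated and 14.4 to 14.9 in untreated piglets. At that brightest probe set its difference was -2.58 (limma adjusted p = 0.0835). Its other probe set was called, at -3.50 (SE 0.54, limma adjusted p = 0.0488), with -3.39 in proximal and -3.62 in distal tissue. Enteroendocrine markers summed to 9.90 to 11.25 and 11.26 to 11.33, next to each other. Summed markers of enterocytes, distal enterocytes, goblet, B and plasma, endothelial, smooth muscle, fibroblast, neuron and glia, and erythroid cells overlapped between the groups. The distal enterocyte, B and plasma, and erythroid sums each rested on 1 gene above the filter level (FABP6, JCHAIN and HBB). The part of neutrophils and of macrophage, T and NK, crypt and enteroendocrine cells in the result was not tested.

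Among interferon-induced genes UBD and SAMHD1 were shared. UBD encodes a ubiquitin-like modifier that interferon-gamma and TNF induce, and it fell by 5.11 (SE 0.57, limma adjusted p = 0.00908). Proximal UBD was 6.46, 5.17 and 7.19 with antibiotics and 8.66, 11.55, 13.22 and 9.67 untreated. Distal UBD was 6.20, 5.19 and 5.29 with antibiotics and 13.77, 7.80, 11.36 and 12.19 untreated. All treated arrays lay below all untreated arrays of the same segment although the untreated ones spanned 4.56 log2 units in proximal and 5.97 in distal tissue. The 95% interval of the distal minus proximal effect was wide, -5.40 to 2.96. UBD lost its call without treated piglet 87 (limma adjusted p = 0.0633).

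SAMHD1, an enzyme that breaks down deoxynucleotides and restricts viruses, fell by 2.56 (SE 0.38, limma adjusted p = 0.0468), with -2.83 in proximal and -2.30 in distal tissue. Its call held without piglet 88 and was lost without any of the other 6 (limma adjusted p up to 0.182). FAM26F, also named CALHM6, a membrane protein induced in immune cells, fell by 2.59 (SE 0.26, limma adjusted p = 0.00764). FAM26F read 7.29, 7.05 and 7.53 with antibiotics and 8.33, 9.70, 8.40 and 9.98 untreated in proximal tissue. In distal tissue FAM26F read 6.29, 6.91 and 5.53 with antibiotics and 9.50, 8.46, 10.86 and 9.65 untreated. No array of one group entered the other's range, and the proximal gap was 0.80 log2 units.

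The lists around these genes did not move as one. Over all genes 0.363% were called lower, 10.4% had an unadjusted p under 0.05 in the lower direction, and 2455 of 4684 had lower means. Of 7 interferon-gamma type genes 1 was called (UBD), 5 had an unadjusted p under 0.05 and the median was -0.31 in proximal and -2.04 in distal tissue. GBP1, an interferon-induced GTPase, shows this: its difference was -0.04 in proximal and -5.09 in distal tissue, with a distal minus proximal effect of -5.05 (limma adjusted p = 0.0247), so it is no shared change. In the type I interferon list 1 of 17 was called (SAMHD1), 11 had lower and 6 higher means, and the median was -0.27. MX1 and ISG15, both classic members, had 0.13 (SE 1.12, limma adjusted p = 0.969) and -0.27 (SE 1.14, limma adjusted p = 0.928). Antigen presentation genes had 0 of 22 called in limma, 9 with an unadjusted p under 0.05 and 20 lower means. Cytokines and chemokines had 0 of 16 called and 5 with an unadjusted p under 0.05. CXCL8, the neutrophil chemoattractant interleukin-8, had -2.82 (SE 0.53, limma adjusted p = 0.0768) with no overlap in both segments, at -2.88 and -2.76, and TNF had -0.17 (SE 0.18, limma adjusted p = 0.673).

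**Figure D4:**
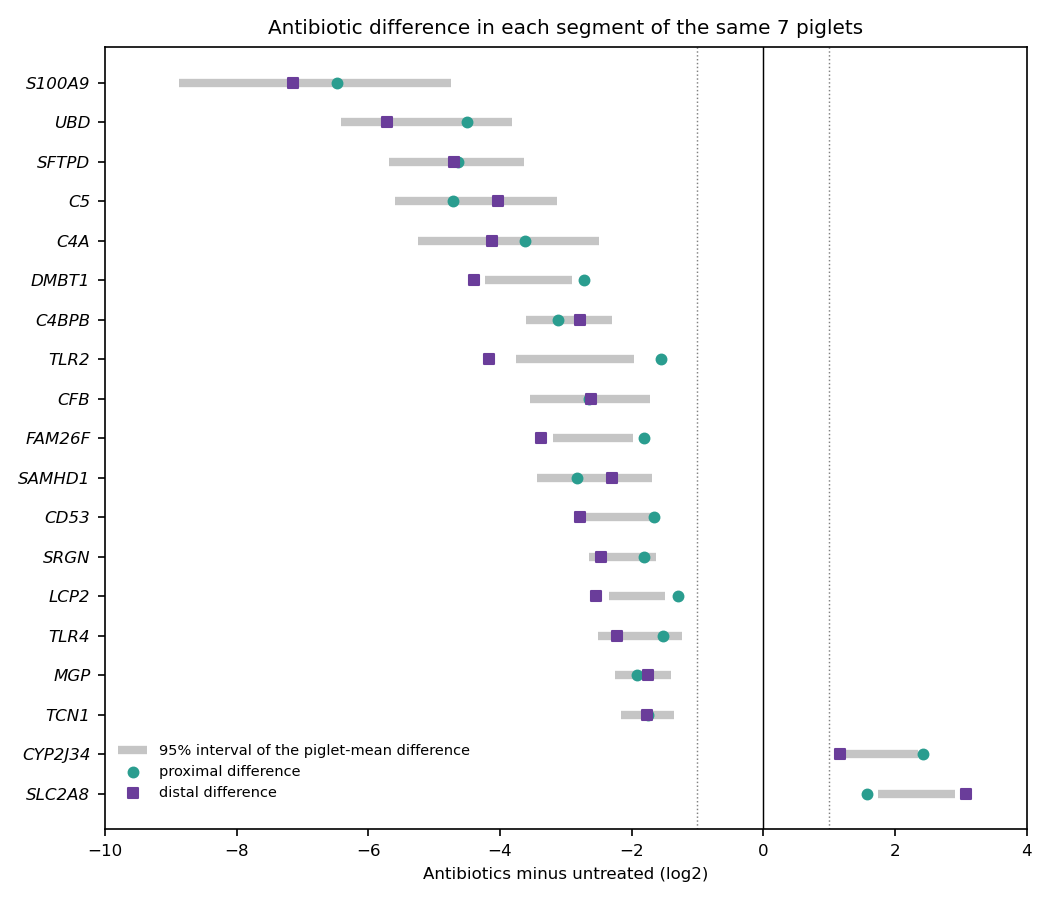
Antibiotics minus untreated difference (log2) of the 19 genes in proximal tissue (circles) and distal tissue (squares) of the same 7 piglets, with a grey bar for the 95% interval of the difference of piglet means and dotted lines at 2-fold. Both symbols of every gene lie on the same side of 0 and past 2-fold on the deposited scale, and the distal decrease is the larger for 12 of the 17 lower genes, DMBT1, TLR2 and FAM26F among them.

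Only 2 annotated genes were called higher and at least 2-fold in both segments. SLC2A8, a sugar transporter of intracellular membranes, rose by 2.33 (SE 0.26, limma adjusted p = 0.00908). SLC2A8 read 8.39, 7.87 and 8.24 with antibiotics and 6.0, 7.0, 6.0 and 7.39 untreated in proximal tissue. It read 8.55, 8.03 and 6.78 with antibiotics and 5.30, 4.62, 4.68 and 4.23 untreated in distal tissue. The groups were apart by 0.48 log2 units in proximal and 1.48 in distal tissue, with a 95% interval of the difference between segments of 0.04 to 2.98. SLC2A8 lost its call without treated piglet 87 (limma adjusted p = 0.0595).

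CYP2J34, a cytochrome P450 of the subfamily that oxidises arachidonic acid, rose by 1.79 (SE 0.24, limma adjusted p = 0.0272). In proximal tissue it was 14.08, 13.90 and 13.89 with antibiotics and 10.60, 12.55, 12.29 and 10.68 untreated. In distal tissue it was 13.53, 14.10 and 13.60 with antibiotics and 13.11, 12.53, 12.08 and 12.62 untreated. The treated piglets were very close to each other, and in proximal tissue the untreated ones fell into a lower pair (83 and 92) and a higher pair (88 and 89). Its call held without piglet 88 and was lost without any of the other 6. APOC2, the apolipoprotein that activates lipoprotein lipase, had no overlap in either segment and a difference of 4.71 (SE 0.91, limma adjusted p = 0.0815), which did not pass. SLC25A1, the mitochondrial citrate carrier, had 1.03 (SE 0.21, limma adjusted p = 0.0863), with 1.92 in proximal and 0.15 in distal tissue, so a shared rise was not measured.

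Called probe sets without an annotated gene numbered 14, with 6 lower and 2 higher in both segments and 6 that were 2-fold higher in distal tissue and less in proximal tissue (0.17 to 0.88 log2). The distal minus proximal effect passed for 1 of these 6. The largest decrease of the 40 was that of a probe set without an annotated gene, which fell by 8.73 (SE 1.08, limma adjusted p = 0.017). Its proximal values were 3.31, 5.27 and 8.86 with antibiotics and 14.93, 14.31, 14.92 and 15.27 untreated. Its distal values were 3.66, 6.66 and 9.22 with antibiotics and 14.74, 14.17, 15.48 and 15.35 untreated. The untreated piglets were uniformly high, and the treated ones differed from each other, with piglet 86 lowest and piglet 95 highest in both segments. Of the 2 shared higher ones, the one with the smaller p rose by 2.69 (SE 0.22, limma adjusted p = 0.00516), with 2.14 in proximal and 3.23 in distal tissue.

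Not every called gene was a shared one. TDH, the mitochondrial L-threonine dehydrogenase, was at the floor of 2.14 on all proximal arrays and was 9.73, 10.62 and 9.92 with antibiotics and 2.14, 2.14, 2.86 and 2.14 untreated on distal arrays. Its mean over segments passed (limma adjusted p = 0.000282), as did those of XIRP2, UPK3A and TDRP, 3 genes named after their values were seen. In the fit over 14 arrays with the replicate block TDRP passed (limma adjusted p = 0.0416). TDH, XIRP2 and UPK3A did not pass there (limma adjusted p = 0.0996, 0.11 and 0.222), and all 30 shared probe sets did. That fit used the arrays of the call and had no term for treatment by segment, so this contrast adds no support for sharing. For TDH and XIRP2 the distal minus proximal effect itself passed, at 7.77 and 4.23 (limma adjusted p = 5.35e-05 and 0.0247). Over all probe sets 9 did so (0.078%, and 0.064% of genes), and 0 of the 19 shared genes were among them. For 16 of the 19 the 95% interval of that effect included 0, with DMBT1, TLR2 and SLC2A8 the exceptions. A larger size in distal tissue was measured in 13 of the 19, 12 of them lower. These intervals are wide, so equal effects in the segments were not shown.

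The 2 treated piglets with 1 array each entered the filter and the choice of a gene's probe set, but not the call or the 2-fold rule. Distal piglet 85 lay outside the range of untreated distal arrays, on the called side, in 18 of 19 genes, C4A being the exception at 7.26. Proximal piglet 98 did so in 11 of 19. In the other 8 (CD53, CYP2J34, MGP, SLC2A8, SRGN, TCN1, TLR4 and UBD) it lay within the untreated range. Its MGP value of 13.32 and its UBD value of 10.36 were among the untreated values, while its DMBT1 (11.45), CFB (10.70) and C5 (6.22) values were among the treated ones. In a fit of all 16 arrays with the piglet as a random block, all 19 genes passed with the same direction. That fit included the arrays that had chosen these genes, so it adds no support and is no separate test in the 2 added piglets.

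**Figure D5:**
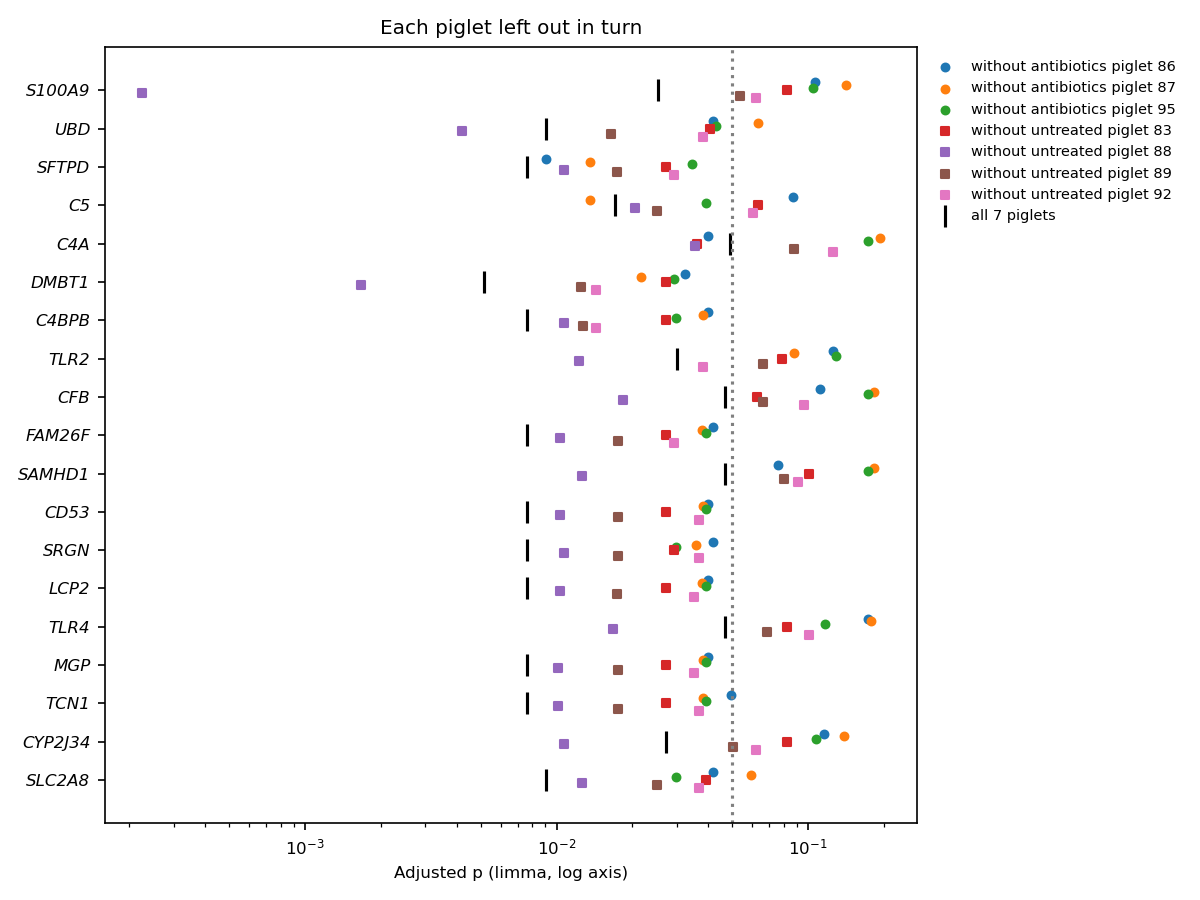
Limma adjusted p (log axis) of the 19 genes with all 7 piglets (black bars) and with each treated (circles) or untreated (squares) piglet left out, with a dotted line at 0.05. For 9 genes all 7 symbols lie left of the line, and for S100A9, CFB, SAMHD1, TLR4 and CYP2J34 the only symbol left of it is the fit without untreated piglet 88.

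With 3 against 4 piglets single animals mattered. The number of called probe sets was 416 without untreated piglet 88, including the 40, and 19 to 45 without any one of the other 6. SFTPD, C4BPB, DMBT1, FAM26F, SRGN, MGP, TCN1, CD53 and LCP2 were called in all 7 of these fits. Piglet 88 had the lowest untreated mean in 10 of the 17 lower genes, and piglet 92 the highest in 9. Without untreated piglets 83 and 88 together 240 probe sets were called, 187 of them 2-fold in both segments, and 18 of the 19 genes passed (C5 had a limma adjusted p of 0.0515). The filter mattered as well. With no filter on dim probe sets 23999 were tested, 1 was called and 0 of the 19 genes passed in limma (adjusted p 0.0647 to 0.282), while 2052 probe sets had an unadjusted p under 0.05. With RNA integrity (5′ minus 3′) added to the model, C4A, CFB, SAMHD1 and TLR4 lost their calls (limma adjusted p 0.0572 to 0.0655) at differences of -3.85, -2.65, -2.59 and -1.87. With values under 5 set to 5 S100A9, TLR2 and TLR4 lost theirs.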

How the data were processed

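Per the labels' protocols, RNA was isolated with Trizol and RNeasy columns with DNase and labelled with biotin by a 3′ IVT Express kit. The deposited values are on a log2 scale, as GCRMA gives them, for each probe set on each array, with a floor at 2.14 and 39.7% of values under 2.5. The submitters' processing notes name GCOS 1.2, GCRMA and limma, with order and settings not given in the sources used here.

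Of 24123 probe sets 124 controls were left out; 10069 had 1 gene, 198 several and 13732 none. Probe sets above 5 on at least 4 of 16 arrays were tested. A gene under 5 on all arrays of the compared piglets of 1 group, such as S100A9 or TLR4, passed this filter through the other group. The filter is thus not independent of the comparison for such genes. A gene was read at the probe set, annotated with it alone, with the highest mean over all arrays. Piglet means were fitted with limma 3.58.1 in R 4.3.3 (lmFit, eBayes), 3 against 4, with Benjamini-Hochberg adjustment over 11538 probe sets and a threshold of 0.05. Segments and the distal minus proximal difference per piglet were fitted likewise. With litters unknown, p-values measure the spread between these piglets. A fit with the title number as a random block used duplicateCorrelation (statmod 1.5.0). Residuals of the 2 arrays of a number correlated at 0.0613 to 0.526, above 0.1 for 5 of 7, and best with each other for 5.

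An "at least" fold sets the brighter mean against the filter level of 5 where all arrays of the dimmer group lay under it. Of 761 genes in 34 lists 371 were measured. Members and lists were chosen with earlier results of these data known. Named genes were, among genes called and 2-fold in both segments, up to 15 each way with the largest value of the smaller segment difference, up to 4 called members of each list, and 25 chosen genes, 20 of them measured (IL1B, NOS2 and PTPRC were dim, and DUOXA2 and ALPI had no annotated probe set). The limma fit of piglet means was tested on simulated data with known changes. The number of arrays limits the precision.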

Additional observations from a re-analysis of the deposited data

Results flagged for a closer look

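In 6 of 98 groups of 4 untreated values tested, 1 piglet lay far from the other 3. The rule's chance rate of about 1 in 20 groups assumes normal values without ties. For TDH and TNF the other 3 values were tied, so any differing value was flagged. Groups of the same gene were also not independent, so that rate cannot be set against this count. Untreated piglet 89 stood apart for C5 on proximal arrays (9.36, the nearest other at 10.75), for UPK3A on proximal arrays (5.10, nearest 3.70) and for TDH on piglet means (2.501, nearest 2.14) and distal arrays (2.86, nearest 2.14). Untreated piglet 92 stood apart for TLR2 on proximal arrays (6.40, nearest 5.003). Untreated piglet 88 stood apart for TNF on proximal arrays (5.46), where the other 3 lay at 5.45, a gap of no size.

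The antibiotic effect differed between segments, by limma's test of the distal minus proximal effect, for TDH (7.77, adjusted p = 5.35e-05), XIRP2 (4.23, adjusted p = 0.0247) and GBP1 (-5.05, adjusted p = 0.0247). TDH and XIRP2 were higher in treated distal tissue and GBP1 was lower there, in all 3 treated piglets compared with all 4 untreated ones.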

How the results depend on the processing

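All 19 shared genes kept their direction under all alternatives that gave a value. Their piglet means did not overlap between the groups. Leaving out a piglet or changing the threshold could therefore not reverse a direction, and this adds no support. The 40 calls on piglet means became 1 with no filter, 922 with array quality weights, 176 at an adjusted p of 0.10, 208 over 14 arrays with the replicate block, 387 with no replicate block and 293 over 16 arrays with the block. The 30 calls in both segments became 0 with no filter in limma (2052 probe sets had an unadjusted p under 0.05 there) and 104 at an adjusted p of 0.10. Without piglets 83 and 88 these were 240 and 187. With 1 piglet left out they ranged from 19 to 416 and from 16 to 228. The 9 calls of the distal minus proximal effect became 1 with no filter, 5 with a filter at 7, 3 with a filter on 6 of 14 arrays, 3 with trend and robust eBayes, 1 with the 5′ minus 3′ covariate, 19 at 0.10, 34 with the replicate block, 5 without piglets 83 and 88, and 1 to 23 with 1 piglet left out. The 14 list genes called became 1 with no filter, 89 with quality weights, 35 at 0.10, 22 with a gene's probe sets averaged, 35 with the replicate block, 47 with no replicate block, 45 over 16 arrays, 45 without piglets 83 and 88, and 8 to 58 with 1 piglet left out.

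With no filter 0 of the 19 genes passed, 23999 probe sets being tested. With values under 5 set to 5, S100A9 (-4.25), TLR2 and TLR4 did not pass. With the covariate C4A, CFB, SAMHD1 and TLR4 did not, and with trend and robust eBayes TLR4 did not. The block, which assumes that the title number pairs arrays, lost no call among the 19 (consensus correlation 0.124). The same arrays had chosen these genes, so this adds no support. Other causes were not tested. The number of piglets, the floor at 2.14 and missing litter labels limit all values.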

Other observations

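Without overlap and by at least 2-fold in both segments, 57 genes were lower and 15 higher, and 41 and 13 of these were not called. Among those not called, 25 lower and 6 higher ones had a limma adjusted p under 0.10. Lower ones included ARG2, a mitochondrial arginase (-3.49 (SE 0.67, limma adjusted p = 0.0782), at least 6.11-fold lower against the level of 5), CXCL13, a B cell chemoattractant (-3.52 (SE 0.72, limma adjusted p = 0.0861)), MMP3, a matrix metalloproteinase (-3.29 (SE 0.77, limma adjusted p = 0.118)), and TIMP1, an inhibitor of such enzymes (-2.70 (SE 0.72, limma adjusted p = 0.149)). Higher ones included EPHX2, soluble epoxide hydrolase (1.80 (SE 0.43, limma adjusted p = 0.121)), ABCD4, a transporter for vitamin B12 in lysosomes (2.09 (SE 0.38, limma adjusted p = 0.0697)), and GALK1, galactokinase (1.23 (SE 0.36, limma adjusted p = 0.172)). These genes were named after their values were seen.

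Over all tested genes 2455 of 4684 had lower means, and 10.4% had an unadjusted p under 0.05 in the lower and 7.56% in the higher direction. Of the 25 lists without a called member, 3 whose means lay mostly on 1 side are set beside these shares. Cell cycle and DNA replication genes were lower in 16 of 16, with 10 at an unadjusted p under 0.05 and a median of -0.69 (-0.81 in proximal and -0.55 in distal tissue). RRM2, a subunit of ribonucleotide reductase, had -1.29 (SE 0.32, limma adjusted p = 0.131) and CCNB1, a mitotic cyclin, had -0.92 (SE 0.26, limma adjusted p = 0.168). Endoplasmic reticulum stress genes were lower in 13 of 13, with 5 at an unadjusted p under 0.05 and a median of -0.77. HSPA5, the main chaperone of that compartment, had -1.25 (SE 0.50, limma adjusted p = 0.281) and XBP1, which switches on genes of the unfolded protein response, had -0.79 (SE 0.19, limma adjusted p = 0.124). Lysosome genes had higher means in 17 of 19, with 7 at an unadjusted p under 0.05 and a median of 0.85 (0.81 in proximal and 0.70 in distal tissue), a direction known from earlier results of these data. LIPA, lysosomal acid lipase, had 1.02 (SE 0.24, limma adjusted p = 0.117) and CTSD, an aspartic protease, had 1.06 (SE 0.24, limma adjusted p = 0.11). In limma 0 members of these 3 lists were called. No overlap in both segments was seen for 0 of 16 cell cycle, 0 of 13 endoplasmic reticulum stress and 1 of 19 lysosome genes. Over all genes such a separation was seen in 2.01% for lower and 0.811% for higher values.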
